A study of Caenorhabditis elegans with 9 samples.

Results

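GAPDH and the other glycolytic enzymes of Caenorhabditis elegans were followed on 9 one-colour Affymetrix arrays of messenger RNA from whole young adult animals. The set covers 13 of the 22625 probe sets on the array, namely 10 probe sets annotated to a single glycolytic gene and 3 control probe sets for GAPDH. Members were picked by gene symbol, from a list of 10 genes that was chosen with their levels on these same arrays already known. The levels, differences and counts of the members are therefore a description of these arrays, without a test. Of the 10 genes, 7 had at least 1 probe set of their own (aldo-1, tpi-1, gpd-2, gpd-3, pgk-1, pyk-1 and ldh-1). For enol-1, which encodes enolase, no probe set is listed in the annotation used here, and gpd-1 and gpd-4 are listed only together, on 2 probe sets that match both.

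The arrays fall into 3 groups of 3. Strain SX9 is a double mutant with the prg-1 allele n4503 and the prg-2 allele nDf57. Strain MT14769 is a double mutant with the prg-1 allele n4357 and the prg-2 allele n4358. N2, the wild-type strain, carries neither mutation. The gene prg-1 encodes a Piwi protein, which binds piRNAs, a class of small RNAs of the germline, and prg-2 is a closely related gene. The study set double mutant animals against wild type. Each sample was a pellet of whole animals, and no label says that replicates came from separate cultures, so the spread between them may be partly technical.

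Glycolysis splits glucose into pyruvate in the cytosol. Aldolase and triosephosphate isomerase make the 3-carbon sugar that GAPDH oxidises, and phosphoglycerate kinase, enolase and pyruvate kinase then lead to pyruvate, which lactate dehydrogenase can turn into lactate. Most of the middle steps also run backwards during gluconeogenesis, when the worm makes sugar from other carbon sources. C. elegans has 4 GAPDH genes, in pairs of near-identical members, and gpd-2 and gpd-3 lie next to each other and to mai-1 in the reference gene table (assembly WBcel235). These neighbours are a classic example of a worm operon, a cluster of genes transcribed together. Levels below are RMA values on the log2 scale, in which a difference of 1 is a doubling, and levels of different probe sets are not comparable with each other.

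Across the series, array medians lay between 4.76 and 4.83 log2, and no arrays were duplicates of each other (pairwise correlation 0.946 to 0.994). The prg-1 probe set ranged from 6.72 to 7.50 log2 in n4503 nDf57, 5.47 to 7.94 in n4357 n4358 and 5.40 to 6.93 in wild type. The prg-2 probe set ranged from 5.46 to 6.53 log2 over all arrays. The positions of these probes relative to the mutations were not analysed here, so they check no label. List medians per array were 10.31 to 11.13 log2 for intestine markers, 7.91 to 9.08 for muscle markers and 4.29 to 7.21 for the 5 vitellogenins, the yolk proteins of adults. These lists have different probe sets, so their levels have no order. Of the 23 listed moulting genes, 22 were measured, and their mean, centred over the 9 arrays, was -0.69, 0.36 and 0.23 log2 in n4503 nDf57, 0.55, 0.16 and -0.62 in n4357 n4358, and 0.33, -0.60 and 0.29 in wild type. Arrays with a low mean of the moulting genes thus occurred once in each group, as n4503 nDf57 replicate 1, n4357 n4358 replicate 3 and wild-type replicate 2. Below, low moulting genes refers to this mean only. Not every gene of the list followed it, and bli-5 was highest on these arrays, at 6.84, 6.93 and 7.21 log2 in the same order.

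GAPDH itself was higher on every mutant array than on any wild-type array in 2 of the 3 probe sets of gpd-2 and gpd-3 and in all 3 control probe sets, beside 1.05% of all probe sets. The control probe sets also read GAPDH and are not separate readings from those of the genes. The gpd-2 probe set stood at 12.81, 12.81 and 12.91 log2 in n4503 nDf57, 12.62, 12.59 and 12.73 in n4357 n4358, and 12.47, 12.25 and 12.59 in wild type. Before rounding, the lowest mutant array lay just above wild-type replicate 3, so the gap between the groups was close to 0. The mean of both mutants was 0.31 log2 above wild type for gpd-2 (SE 0.09), a 1.24-fold higher level, with 0.41 in n4503 nDf57 and 0.21 in n4357 n4358 (SE 0.11 each).

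The probe set of gpd-3 with the higher signal (172697_x_at) gave 12.64, 12.86 and 12.72 log2 in n4503 nDf57, 12.48, 12.47 and 12.73 in n4357 n4358, and 12.24, 12.17 and 12.32 in wild type. Here the lowest mutant array, at 12.47, cleared the highest wild-type array by more than the SD of 0.08 among wild-type arrays (n = 3). The difference of the mean of both mutants was 0.41 log2 (SE 0.10), or 1.32-fold. The other gpd-3 probe set (173608_s_at) gave 11.47, 11.53 and 11.40 log2 in n4503 nDf57, 11.07, 11.10 and 11.44 in n4357 n4358, and 11.13, 10.80 and 11.07 in wild type. On this probe set n4503 nDf57 lay wholly above wild type, while n4357 n4358 overlapped it, and the mean difference was 0.34 log2 (SE 0.12). All 3 probe sets of gpd-2 and gpd-3 are of the types whose probes may match more than 1 related sequence, so they do not separate the genes and may not be independent readings.

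**Figure D1:**
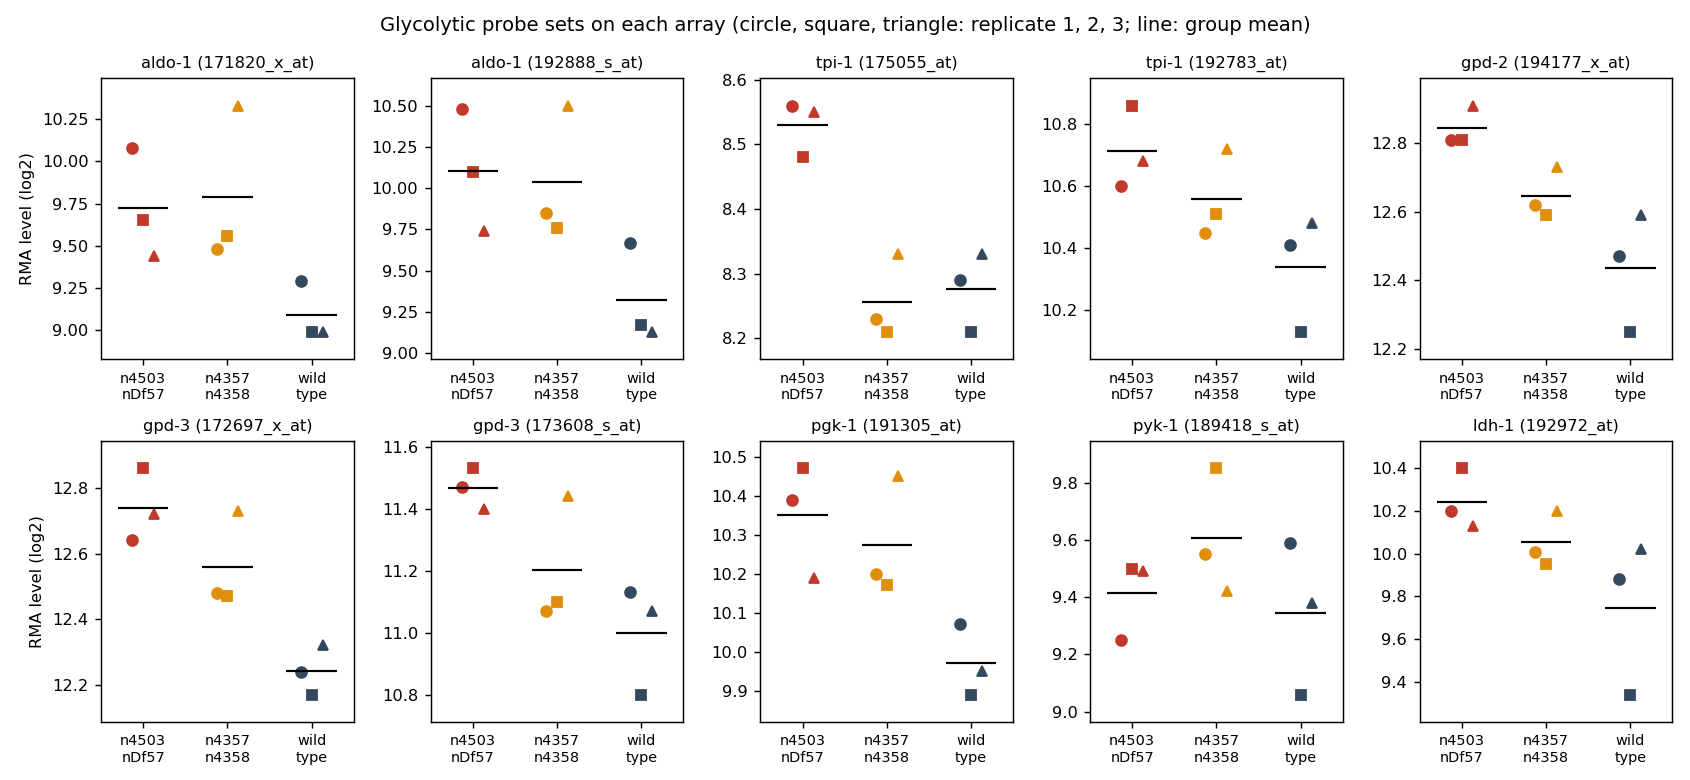
RMA level (log2, vertical axis, a different range in each panel) of the 10 glycolytic probe sets on each array, with n4503 nDf57 at the left, n4357 n4358 in the middle and wild type at the right of each panel. Symbols are single arrays and lines are group means of 3 arrays. In 5 panels, those of aldo-1 (both), gpd-2, gpd-3 (172697_x_at) and pgk-1, the 6 mutant arrays sit higher than the 3 wild-type arrays.

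The control probe sets for GAPDH read the transcript near its 5' end, in the middle and near its 3' end, and serve to judge how complete the labelled RNA is. At the 5' end they gave 12.25, 12.51 and 12.32 log2 in n4503 nDf57, 12.05, 12.02 and 12.32 in n4357 n4358, and 11.87, 11.62 and 11.92 in wild type. At the 3' end they gave 12.11, 12.09 and 12.11 in n4503 nDf57, 11.89, 11.92 and 12.11 in n4357 n4358, and 11.76, 11.61 and 11.87 in wild type. The mutant arrays lay above wild type at both ends, although at the 3' end only by a margin of hundredths of a log2 unit.

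The mean of both mutants was higher by 0.44 log2 at the 5' end (SE 0.12), 0.36 in the middle (SE 0.10) and 0.29 at the 3' end (SE 0.09) of GAPDH. The 3' level minus the 5' level was -0.14, -0.42 and -0.21 log2 in n4503 nDf57, -0.16, -0.10 and -0.22 in n4357 n4358, and -0.11, -0.01 and -0.05 in wild type. The difference between the ends was thus 0.15 log2 more negative in the mutants on average (-0.149), with n4357 n4358 replicate 2 level with wild-type replicate 1, and its part in the 5' result was not tested. For the other worm control transcripts this difference between mutants and wild type was -0.109 for actin, -0.047 for catalase, -0.064 for ubiquitin and 0.019 for gly14.

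**Figure D2:**
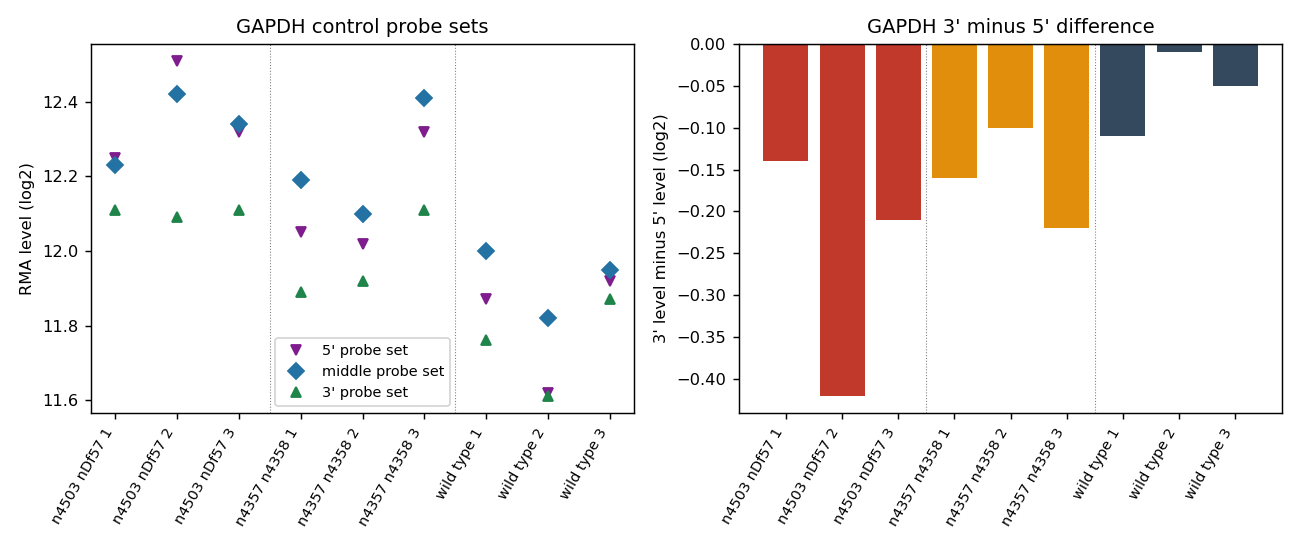
Levels of the GAPDH control probe sets (left, RMA log2) and the 3' level minus the 5' level of GAPDH (right, log2) on each of the 9 arrays, with n4503 nDf57 first, then n4357 n4358 and wild type. All 3 probe sets are higher on the mutant arrays than on the wild-type arrays, and the 3' minus 5' difference is lowest on n4503 nDf57 replicate 2, at -0.42.

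Upstream of GAPDH, aldo-1, which encodes a fructose-bisphosphate aldolase, had the largest mean difference from wild type among the members. Its probe set 192888_s_at stood at 10.48, 10.10 and 9.74 log2 in n4503 nDf57, 9.85, 9.76 and 10.50 in n4357 n4358, and 9.67, 9.17 and 9.13 in wild type. All mutant arrays lay above wild type, but the lowest of them, n4503 nDf57 replicate 3, was close to wild-type replicate 1. The probe set 171820_x_at of the same gene gave 10.08, 9.65 and 9.44 log2 in n4503 nDf57, 9.48, 9.56 and 10.33 in n4357 n4358, and 9.29, 8.99 and 8.99 in wild type. The mean of both mutants was 0.74 log2 above wild type on the first aldo-1 probe set (SE 0.23) and 0.67 on the second (SE 0.22), which is 1.68-fold and 1.59-fold. Both mutant strains had their highest aldo-1 level on the array where the mean of the moulting genes was lowest. Wild-type replicate 2, also low in that mean, had no raised aldo-1 level.

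The 2 probe sets of tpi-1, the triosephosphate isomerase gene, did not give the same picture. On 192783_at, tpi-1 stood at 10.60, 10.86 and 10.68 log2 in n4503 nDf57, 10.45, 10.51 and 10.72 in n4357 n4358, and 10.41, 10.13 and 10.48 in wild type, a difference of 0.30 for both mutants (SE 0.12). The groups overlapped through n4357 n4358 replicate 1, and without wild-type replicate 2 the difference was 0.19. On 175055_at, tpi-1 stood at 8.56, 8.48 and 8.55 log2 in n4503 nDf57, 8.23, 8.21 and 8.33 in n4357 n4358, and 8.29, 8.21 and 8.33 in wild type. Here n4503 nDf57 was above both other groups, which coincided, with differences from wild type of 0.25 log2 in n4503 nDf57 and -0.02 in n4357 n4358 (SE 0.09 each).

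Downstream of GAPDH, pgk-1, which encodes phosphoglycerate kinase, was again higher on all mutant arrays. It stood at 10.39, 10.47 and 10.19 log2 in n4503 nDf57, 10.20, 10.17 and 10.45 in n4357 n4358, and 10.07, 9.89 and 9.95 in wild type, a difference of 0.34 (SE 0.10) or 1.27-fold. The pgk-1 probe set is of the kind designed for a single gene, and it differed from wild type by similar amounts in n4503 nDf57 (0.38 log2) and n4357 n4358 (0.31; SE 0.12 each).

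For pyk-1, a pyruvate kinase gene, the groups overlapped throughout. Its levels were 9.25, 9.50 and 9.49 log2 in n4503 nDf57, 9.55, 9.85 and 9.42 in n4357 n4358, and 9.59, 9.06 and 9.38 in wild type. The difference of 0.17 for pyk-1 (SE 0.15) was 0.03 without wild-type replicate 2 and 0.29 without wild-type replicate 1.

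The lactate dehydrogenase gene ldh-1 stood at 10.20, 10.40 and 10.13 log2 in n4503 nDf57, 10.01, 9.95 and 10.20 in n4357 n4358, and 9.88, 9.34 and 10.02 in wild type. Here n4503 nDf57 lay above wild type and n4357 n4358 overlapped wild-type replicate 3. The mean difference of ldh-1 was 0.40 log2 (SE 0.16), or 1.32-fold, and 0.20 without wild-type replicate 2, so that this 1 array carried much of it.

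The probe sets shared by gpd-1 and gpd-4 differed from wild type in the same direction as those of gpd-2 and gpd-3, but with a wider spread within groups. On 171822_x_at they stood at 7.83, 7.18 and 6.88 log2 in n4503 nDf57, 7.49, 7.30 and 7.79 in n4357 n4358, and 7.35, 7.25 and 6.76 in wild type. The range within each group was wider than the difference of 0.29 log2 between both mutants and wild type (SE 0.23), and n4503 nDf57 replicate 1 and n4357 n4358 replicate 3, the mutant arrays with low moulting genes, were the highest. The probe set 193860_s_at differed by 0.25 log2 (SE 0.39). The test of gpd-1 and gpd-4 against gpd-2 and gpd-3 was not made, and the order of the arrays is given only as a description.

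**Figure D3:**
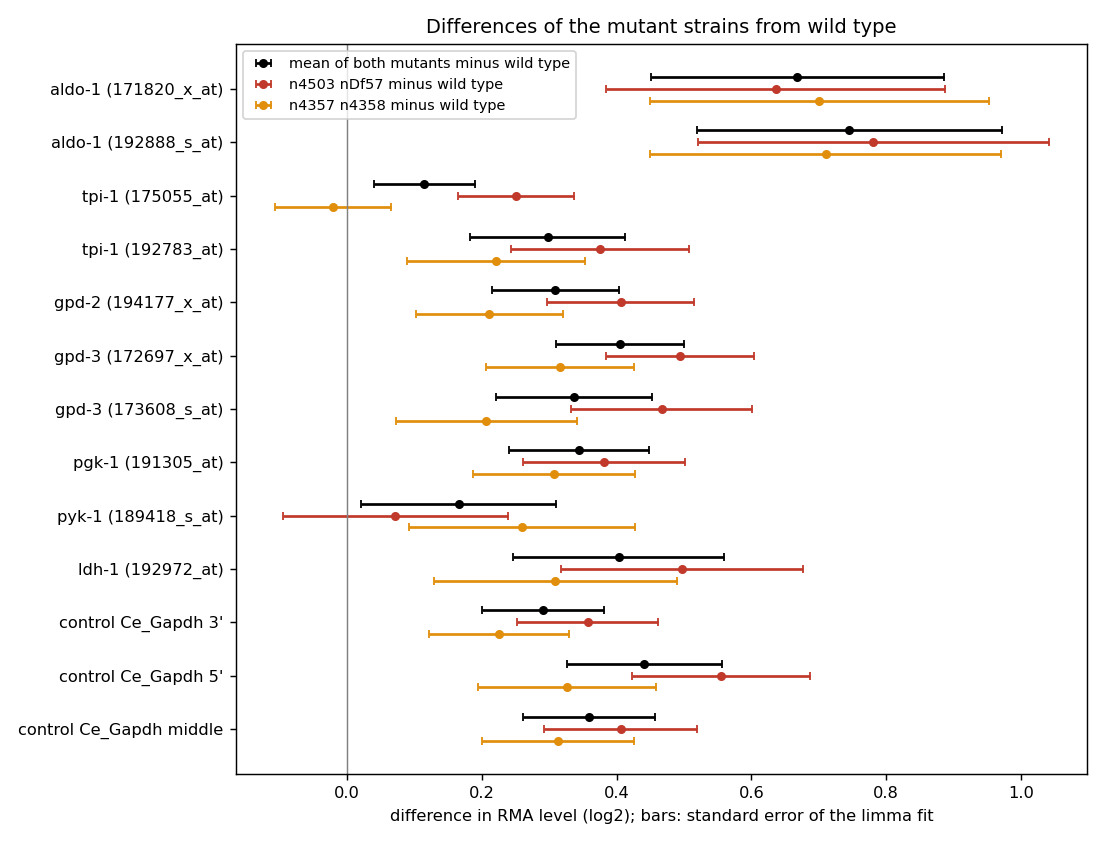
Difference in RMA level (log2, horizontal axis) from wild type for the 10 glycolytic probe sets and the 3 GAPDH control probe sets, for the mean of both mutants (black), n4503 nDf57 (red) and n4357 n4358 (orange). Bars are standard errors of the limma fit over 9 arrays. The differences of the mean of both mutants run from 0.12 (tpi-1, 175055_at) to 0.74 log2 (aldo-1, 192888_s_at).

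Set against the array as a whole, all 10 glycolytic probe sets had a positive difference between the mean of both mutants and wild type, where 56.5% of all 22548 probe sets did. With 1 probe set per gene the median over the 7 genes was 0.34 log2, beside 0.02 over all probe sets, and it was 0.22 without wild-type replicate 2. In 5 of the 10 every mutant array exceeded every wild-type array, beside 1.05% of all probe sets. With limma and Benjamini-Hochberg adjustment over all probe sets 0 of the 10 were called in either direction at a threshold of 0.05, beside 0% of all probe sets. At an unadjusted p under 0.05, 8 of the 10 were higher, beside 1.88% of all probe sets, and 0 were lower, beside 1.73%. The 10 probe sets come from 7 genes and share sequences and arrays, so these counts are not 10 separate readings. The shares cover probe sets of every signal level, and none was taken among probe sets with signals like those of the members.

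The strains were also set against wild type one at a time. These comparisons share the wild-type arrays. In n4503 nDf57, 9 of the 10 probe sets lay wholly above wild type, pyk-1 being the exception, beside 4.02% of all probe sets. In n4357 n4358 the 5 named above did, beside 4.36%. The median over the 7 genes was 0.41 log2 in n4503 nDf57 and 0.31 in n4357 n4358. With limma 0 of the 10 were called in n4503 nDf57 and 0 in n4357 n4358, beside 0% of all probe sets in each case, while 9 and 4 had an unadjusted p under 0.05 and were higher, beside 1.72% and 1.96%. With array weights in the fit, 1 member was called in n4503 nDf57, gpd-3 on 172697_x_at (difference 0.57 log2, SE 0.07, limma adjusted p = 0.0277), among 0.164% of all probe sets. In that fit n4503 nDf57 replicate 2 had a weight of 6.64, beside 0.298 for replicate 1 and 0.834 for replicate 3, so the call rests mostly on replicate 2. The members were chosen with their levels known, so this p is a description too.

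Between the strains, n4503 nDf57 was higher than n4357 n4358 on 8 of the 10 probe sets, with a median over the 7 genes of 0.15 log2 beside 0 over all probe sets. Its arrays lay wholly above those of n4357 n4358 for gpd-2 and for tpi-1 on 175055_at, 2 of 10 beside 3.37% of all probe sets. The difference for gpd-2 was 0.20 log2 (SE 0.11) and that for tpi-1 on this probe set 0.27 (SE 0.09). By limma 0 of the 10 were called, beside 0% of all probe sets, and 1 had an unadjusted p under 0.05 and was higher, beside 1.71%.

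Within the groups the members varied together to different degrees. After removal of each group's mean, the 2 aldo-1 probe sets correlated over the 9 arrays with Pearson's r = 0.95, the 2 gpd-3 probe sets with 0.81 and the 2 tpi-1 probe sets with 0.57. The GAPDH 5' control followed gpd-3 (172697_x_at) at 0.95 and tpi-1 (192783_at) at 0.97, and the 3' control followed gpd-2 at 0.90. For pgk-1 the correlation was 0.86 with aldo-1 (192888_s_at), 0.84 with gpd-3 on 173608_s_at, 0.70 with gpd-3 on 172697_x_at and 0.24 with gpd-2. With the GAPDH controls it was 0.74 at the 5' end, 0.73 in the middle and 0.52 at the 3' end. By contrast pyk-1 correlated with the other 9 glycolytic probe sets at -0.34 to 0.39. These values describe 9 arrays that were normalised together and, in part, probe sets that share sequences, and no p is attached to them.

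Genes of the neighbouring pathways came from lists written from general knowledge. These and the marker lists below were chosen with earlier results of these data known, so their counts and medians are a description. Of 72 listed genes 69 were measured, and with limma and Benjamini-Hochberg adjustment 0 of them were called in any of the 4 comparisons. At an unadjusted p under 0.05, 14 of the 69 had a higher level in the average of the mutant strains and 0 a lower one, beside the 1.88% and 1.73% above, while 12 were higher in n4503 nDf57 against wild type (beside 1.72%), 6 in n4357 n4358 against wild type (beside 1.96%) and 4 in n4503 nDf57 against n4357 n4358 (beside 1.71%). The remaining glycolytic genes, with mai-1, had a positive difference in 8 of 10 and a median of 0.17 log2, which was 0.09 without wild-type replicate 2. Among them aldo-2, the other aldolase gene, stood at 11.88, 12.01 and 11.90 log2 in n4503 nDf57, 11.83, 11.86 and 12.04 in n4357 n4358, and 11.86, 11.53 and 11.61 in wild type, a difference of 0.25 (SE 0.10). That difference was smaller than the one of either aldo-1 probe set, which was not tested. The genes of the regulated early steps are named here after their values were seen. The hexokinase genes had differences of 0.14 log2 for hxk-1 (SE 0.14), 0.02 for hxk-2 (SE 0.16) and 0.07 for hxk-3 (SE 0.08). The phosphofructokinase genes had 0.21 for pfk-1.1 (SE 0.10) and -0.32 for pfk-1.2 (SE 0.18). For mai-1, which shares the operon of gpd-2 and gpd-3 and is likewise named after its values were seen, all mutant arrays lay above wild type, at 6.75 to 7.07 log2 in n4503 nDf57, 6.77 to 6.78 in n4357 n4358 and 6.40 to 6.73 in wild type, with a difference of 0.20 (SE 0.11).

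The gluconeogenesis and glyoxylate cycle genes had a positive difference in 6 of 6 and a median of 0.53 log2, which was 0.43 without wild-type replicate 2 and 0.35 without n4357 n4358 replicate 3. The gene pck-2, for phosphoenolpyruvate carboxykinase, which draws carbon back towards sugar, stood at 11.53, 11.74 and 11.33 log2 in n4503 nDf57, 11.25, 11.24 and 11.73 in n4357 n4358, and 10.91, 10.88 and 10.94 in wild type. All mutant arrays of pck-2 lay above wild type, with a difference of 0.56 (SE 0.14). With array weights, which rest mostly on replicate 2 in n4503 nDf57, 0.164% of all probe sets were called in that strain against wild type. The gene pck-2 was among them (difference 0.77 log2, limma adjusted p = 0.034). Its paralogue pck-1 had a difference of 0.97 (SE 0.26), while fbp-1, for the bisphosphatase of the same pathway, had one of 0.09 (SE 0.15), and is named after its values were seen.

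Pyruvate dehydrogenase genes, which feed pyruvate into the mitochondrial cycle, had a positive difference in 7 of 7 with a median of 0.21 log2, and pdhb-1 at 0.31 (SE 0.12). The citric acid cycle genes had one in 19 of 22 with a median of 0.26, and sdhd-1, a subunit of succinate dehydrogenase, had the smallest p at 0.41 (SE 0.13). Without wild-type replicate 2 the median was 0.09 log2 for the pyruvate dehydrogenase genes and 0.14 for the citric acid cycle genes. The pentose phosphate pathway, the alternative route for glucose, had a positive difference in only 2 of 7 and a median of -0.07, with gspd-1, its entry enzyme, at -0.27 (SE 0.20). Glycogen and trehalose genes had one in 8 of 12 with a median of 0.05 and gsy-1, glycogen synthase, at 0.21 (SE 0.10). The 5 measured hypoxia response genes had one in 4 of 5, with a median of 0.37, and nhr-57, a target of the hypoxia factor HIF-1, at 0.39 (SE 0.24). The hypoxia median was 0.12 without wild-type replicate 2 and 0.14 without wild-type replicate 1.

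**Figure D4:**
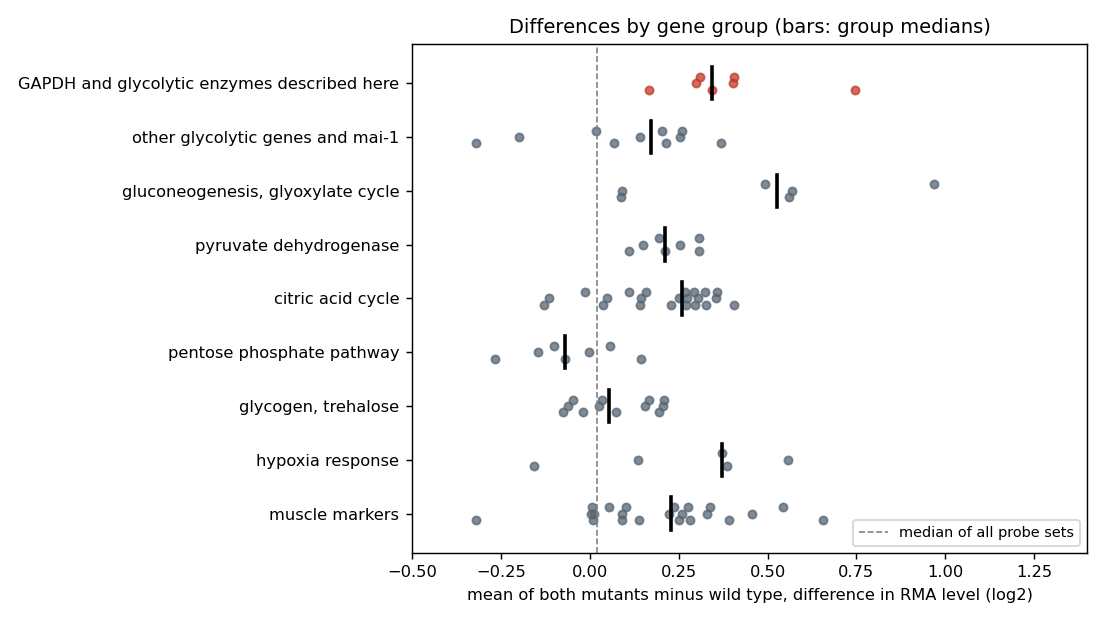
Difference between the mean of both mutants and wild type (log2, horizontal axis) for each gene of the lists named at the left, 1 probe set per gene. Black bars are list medians and the dashed line is the median of all probe sets, 0.02. The glycolytic enzymes described here (red) have a median of 0.34, and the pentose phosphate genes one of -0.07.

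Glycolytic enzymes are abundant in muscle, so marker lists were read beside them. In RNA of whole animals a smaller number of cells of a type and less RNA per cell cannot be told apart. Muscle markers had a positive difference in 21 of 22 and a median of 0.23 log2, with tni-3, a troponin gene, at 0.66 (SE 0.18). Without wild-type replicate 2 these were 14 of 22 and 0.06 log2. Centred over the 9 arrays, the list mean was -0.13, 0.12 and 0.16 log2 in n4503 nDf57, 0.23, 0.19 and -0.16 in n4357 n4358, and 0.22, -0.46 and -0.16 in wild type. The muscle means of the mutants thus overlapped those of wild type, with wild-type replicate 1 at the upper end and wild-type replicate 2 at the bottom.

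The mean of the 7 glycolytic genes was 0.17, 0.26 and 0.10 log2 in n4503 nDf57, 0.00, 0.02 and 0.23 in n4357 n4358, and -0.12, -0.45 and -0.19 in wild type. The lowest value among the mutants, 0.00, exceeded the top wild-type value of -0.12. The citric acid cycle mean ran from 0.01 to 0.15 in n4503 nDf57, 0.01 to 0.10 in n4357 n4358 and -0.36 to 0.06 in wild type, where replicate 2 was again lowest. What part muscle markers have in the glycolytic result was not tested.

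Other marker lists had medians of -0.002 log2 for intestine (cpr-4 at 0.97, SE 0.45), 0.02 for moulting (mlt-10 at 0.27, SE 0.21), 0.03 for neurons (ric-19 at -0.20, SE 0.10) and 0.06 for oocyte and germline genes (mex-6 at 0.25, SE 0.10). Sperm genes stood at -0.28 (spe-10 at -0.28, SE 0.10) and vitellogenins at -0.48 (vit-4 at -1.61, SE 0.66). For vit-4, wild-type replicate 1, at 4.90 log2, lay within the mutant range of 4.29 to 6.06. Wild-type replicates 2 and 3 stood at 7.87 and 7.05. With limma 0 genes of the 7 marker lists were called. At an unadjusted p under 0.05, 3 muscle markers and 1 germline gene were higher, beside 1.88% of all probe sets, and 2 sperm genes and 2 vitellogenins were lower, beside 1.73%.

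**Figure D5:**
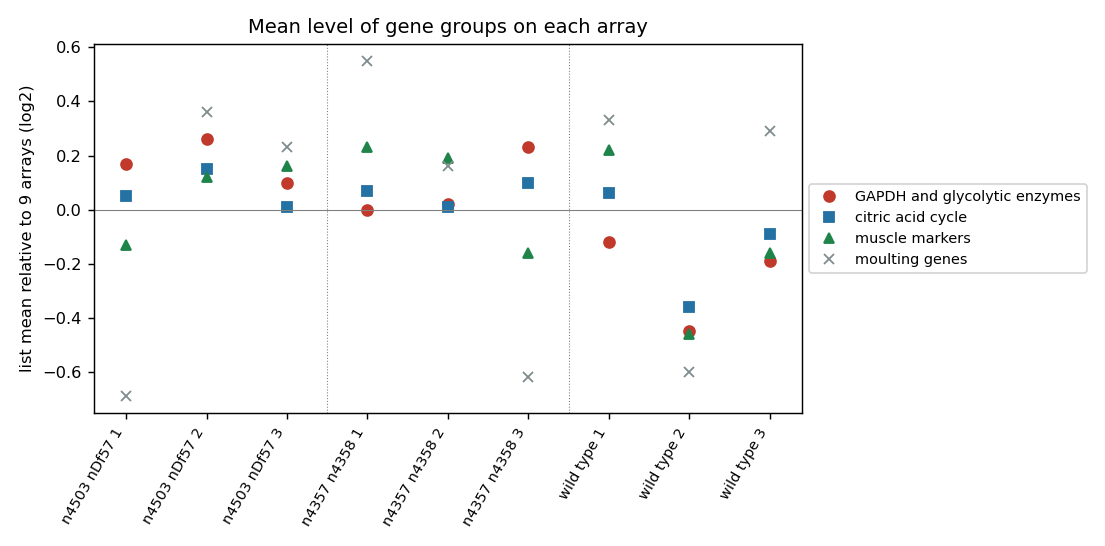
Mean level of 4 gene groups on each array, relative to their mean over all 9 arrays (log2, vertical axis), with n4503 nDf57 at the left, then n4357 n4358 and wild type. The glycolytic enzymes (red circles) lie at or above 0 on the mutant arrays and between -0.45 and -0.12 on the wild-type arrays, while moulting genes (crosses) are low on 1 array of each group.

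The genes most like gpd-2 and gpd-3 were sought among 3266 probe sets annotated to a single gene with a mean level of at least 6 log2 and an SD of at least 0.25 over the 9 arrays. Likeness was Pearson's r over the 9 arrays with the mean of the 3 probe sets of gpd-2 and gpd-3. The members themselves were left out of the search, so the ranking does not place them. Over the same arrays, the single gpd-2 and gpd-3 probe sets correlated at 0.86 to 0.90 with ldh-1 and at 0.16 to 0.26 with pyk-1. The 10 highest probe sets covered 8 genes, and except for those of kat-1 and hach-1 they are of the types whose probes may match more than 1 sequence. They were tspo-1, a mitochondrial translocator protein gene (r = 0.97 and 0.95), kat-1, an acetyl-CoA thiolase gene (0.97), ech-6 (0.95), hphd-1 (0.95 and 0.93) and hach-1 (0.93), which belong to propionate breakdown, mps-2 (0.91), inos-1 (0.91) and pck-1 (0.91). Their differences between the mean of both mutants and wild type ran from 0.42 for tspo-1 (SE 0.11) to 1.51 log2 for hphd-1 (SE 0.48). The mean of gpd-2 and gpd-3 was itself higher on every mutant array, so positive differences follow from the selection and are no separate result. Without wild-type replicate 2 and n4503 nDf57 replicate 2, the arrays farthest from the median in GAPDH, r was 0.93 and 0.90 for tspo-1, 0.97 for kat-1, 0.91 for ech-6 and 0.83 for pck-1.

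With group means removed r stayed at 0.96 for ech-6, 0.92 for hach-1 and 0.88 for kat-1 and was 0.68 for mps-2. Spearman's rho over the 9 arrays was 0.95 for kat-1, 0.92 for ech-6 and 0.85 for pck-1. At the other end stood irg-3 (r = -0.91), an infection response gene, gbh-2 (-0.90), cpt-5 (-0.88), Y48A6B.3 (-0.86) and psme-3 (-0.86). These genes were selected as extremes of 3266, so the correlations carry no p.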

How the data were processed

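Total RNA of pelleted young adults was labelled by 3' in vitro transcription, per the labels' protocols. The authors deposited 1 log2 level for each probe set and array, computed with RMA, and limma is also named in the submitters' processing notes, without versions. RMA equalises the distributions of the arrays, so a shift shared by most genes is removed. The 77 control probe sets stayed out of the tests, leaving 22548. The GAPDH controls were read from a second fit of all probe sets. Probe sets were named from the platform annotation, in which 20766 name 1 gene, 887 several and 895 none. All 9 arrays entered 1 limma fit (limma 3.58.1, R 4.3.3) that estimated 1 mean for each group, with 6 residual and 2.38 prior degrees of freedom, and Benjamini-Hochberg adjustment over all probe sets. The script was tested on simulated data. Where a listed gene had several probe sets, the one of highest mean level stood for it. The number of arrays limits the precision of each value.

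All members are named. Of each other list the text names the called genes or, where there were none, the one with the smallest unadjusted p in both mutants against wild type, and the 10 most and 5 least alike probe sets by r. Also named, after their values were seen, are mai-1, the hexokinase and phosphofructokinase genes, fbp-1 and bli-5. Members and lists were chosen with earlier results of these data known. Alternatives tried were cyclic loess, moulting genes as a covariate, the replicate number as a block, array weights, a filter below the 30th percentile of level, fits of only the compared groups, ribosomal protein genes as the centre of each array, a robust variance trend, no shared probe sets, other thresholds (0.01 and 0.1), the mean of a gene's probe sets, and each array left out. Leaving out arrays for the count of separated probe sets and for the list medians was added after seeing the data.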

Additional observations from a re-analysis of the deposited data

How the results depend on the processing

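All member differences in both mutants against wild type kept their sign and moved by less than the SD within groups under every alternative run. Called members stayed at 0, except for 1 with array weights in n4503 nDf57 against wild type, and called pathway genes likewise, except for 1 there. These weights ran from 0.148 (n4357 n4358 replicate 3) to 6.64 (n4503 nDf57 replicate 2). The median member difference ran from 0.22 to 0.39 log2 with single arrays left out and was 0.37 with centring on ribosomal protein genes, which moved the median of all probe sets from 0.02 to 0.05, and 0.35 under cyclic loess. Leaving out single arrays, which can only keep or raise the count of members separated from wild type, gave 5 to 7. The share of all probe sets lying above wild type in these settings ran from 1.27% to 4.7%. It was 2.49% without wild-type replicate 3, where 7 members did. The pentose phosphate median of -0.07 log2 was 0.025 without wild-type replicate 3, 0.001 without n4503 nDf57 replicate 1 and -0.121 without wild-type replicate 1. The moulting covariate has nearly equal group means (-0.03, 0.03 and 0.00 log2 in n4503 nDf57, n4357 n4358 and wild type), so it could move the differences little. The GAPDH 3' minus 5' difference between mutants and wild type ran from -0.18 to -0.107 with single arrays left out. With array weights the difference of tpi-1 on 175055_at was 0.06, against 0.12 without. Same-numbered arrays correlated at -0.6 to 0.404 in their deviations from group means, without a common direction. Other variation between arrays could hide a pairing, so this does not exclude one. Each group holds 1 array of each replicate number, so the replicate block cannot change the group differences. The median member difference under the block was therefore 0.34 log2 as before, and 0 members were called. The fit of only the arrays compared was not run for both mutants against wild type, which uses all arrays. With 3 arrays per group, a count of 0 calls leaves differences of the size seen here undecided.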
